A study of Mus musculus with 8 samples.

Results

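Type I interferon response genes are the genes that cells switch on when interferon alpha or beta binds the receptor IFNAR. The receptor activates the kinases JAK1 and TYK2, which phosphorylate STAT2 and other factors, and STAT2 with IRF9 is part of a complex called ISGF3 that binds interferon-stimulated response elements in DNA. The induced proteins sense viral nucleic acid, block viral replication and tune the pathway itself, and T cells keep a low tonic level of many of them without infection. The 29 genes described here were taken by name from the table of gene expression, and 29 of 29 were among its 19826 genes. They were measured in regulatory T cells (Treg), the Foxp3-expressing CD4 T cells that restrain other immune cells.

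The libraries were made from polyadenylated RNA of CD4+ YFP+ cells that were sorted straight from spleen and peripheral lymph nodes of untreated C57BL/6 mice, with 4 libraries per group. The WT group had the genotype Foxp3 YFP-Cre/+ Pdpk1 +/+, and the other group Foxp3 YFP-Cre/+ Pdpk1 FL/FL, in which Cre deletes the floxed part of Pdpk1, the gene of the kinase PDK1 that activates AKT. Both groups carry 1 copy of the YFP-Cre allele of Foxp3, a gene on the X chromosome, beside a wild-type copy, so Treg without Cre remain in the same animal and were not in the sort. The groups are called WT 1 to 4 and labelled KO 1 to 4, by the titles' replicate numbers, and the labels state neither the ages nor how many mice went into a library. The p-values therefore reflect how far these libraries vary, which may be partly technical.

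Libraries held 17448095 to 26299577 reads. Pdpk1, summed over its exons, averaged 2223 ± 320 normalized counts in WT and 1983 ± 365 in the labelled KO libraries (SD, n = 4 each, exact two-sided permutation p = 0.286), a value that cannot check the labels because exons outside the deleted part are counted too. Foxp3 was at 4418 or more, Cd3e at 6768.8 or more and Cd4 at 13352.3 or more in every library, while the plasmacytoid dendritic cell marker Siglech, from a cell type that makes much type I interferon, did not exceed 10.1. The 16 macrophage markers examined summed to between 352 and 1952 in WT and between 1713 and 6132 in the labelled KO libraries, and 8 of 15 tested were higher in the latter, 0 lower. Summed T cell markers were at 76470 to 97340 in WT and 60940 to 72900 in the labelled KO libraries, and Treg markers at 32350 to 36590 and 35030 to 41360. Among the 5 Treg markers the directions differed: Il2ra was higher (log2 change 0.63, adjusted p = 0.00114) and Ikzf2 lower (-1.13, adjusted p = 4.45e-06). The mean log2 level of the Treg markers was 12.26 to 12.45 in WT and 12.06 to 12.24 in the labelled KO libraries. Other lists stayed low: B cells at 360 to 528 and 156 to 305, CD8 T cells at 268 to 512 and 365 to 528 (mean log2 level 4.88 to 6.72 and 6.93 to 7.36, without overlap, from Cd8a at 2.25 to 31.3 and 35.9 to 55.9), natural killer cells at 78.2 to 141 and 59.6 to 109, conventional dendritic cells at 10.2 to 98.4 and 19.7 to 53.9, erythroid cells at 15.6 to 169 and 6.83 to 289, and neutrophils at 0 to 12.9 and 0. The plasmacytoid dendritic cell list came to 2883 to 3762 and 2618 to 2802, nearly all from Pacsin1. Fewer cells of a type and less RNA per cell cannot be told apart in such bulk samples.

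Promoter sequence is shown first, because binding of ISGF3 to response elements is the known route by which such genes are induced. Windows from 250 bases before to 50 bases after the start site were available for 21 of the 29 genes in RefSeq (GRCm38.p6). The core of the interferon-stimulated response element, GAAA followed by any 2 bases and GAAA again, on either strand, was found in 13 of their 25 windows (52%), belonging to 12 genes, against 3.44% of all 32851 windows. The gamma-activated site, TTCNNNGAA, on either strand, was in 4 of the 25 windows (16%), against 8.3% of all, and overlapped the other motif in Bst2. The 5 windows printed 5′ to 3′ on the gene's own strand belong to Isg15, with 3 overlapping cores and no rise, to Ifit1 and Ifit3, with 2 cores each, and to Oasl2 and Ifi44, which rose and hold no match to these letters. Capitals mark the cores. The windows are chr4:156200769-156201068 (minus strand), chr19:34640639-34640938 and chr19:34583279-34583578 (plus strand), chr5:114896684-114896983 (plus strand) and chr3:151749861-151750160 (minus strand).
Isg15: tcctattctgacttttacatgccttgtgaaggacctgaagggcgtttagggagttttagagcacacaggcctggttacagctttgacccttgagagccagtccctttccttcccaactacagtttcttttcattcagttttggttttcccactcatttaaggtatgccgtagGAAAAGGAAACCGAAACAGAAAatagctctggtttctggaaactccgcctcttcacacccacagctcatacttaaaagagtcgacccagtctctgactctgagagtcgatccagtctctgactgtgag
Ifit1: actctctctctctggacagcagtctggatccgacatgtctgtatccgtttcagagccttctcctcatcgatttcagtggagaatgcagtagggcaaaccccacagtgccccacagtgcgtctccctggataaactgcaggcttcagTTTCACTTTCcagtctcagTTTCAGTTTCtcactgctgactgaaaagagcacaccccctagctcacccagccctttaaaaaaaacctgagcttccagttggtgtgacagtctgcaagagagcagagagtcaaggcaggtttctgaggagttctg
Ifit3: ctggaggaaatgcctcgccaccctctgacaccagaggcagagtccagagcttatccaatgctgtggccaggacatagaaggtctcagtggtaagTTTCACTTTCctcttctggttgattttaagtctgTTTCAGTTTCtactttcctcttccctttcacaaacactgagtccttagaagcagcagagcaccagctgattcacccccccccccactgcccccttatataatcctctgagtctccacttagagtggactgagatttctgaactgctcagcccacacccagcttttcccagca
Oasl2: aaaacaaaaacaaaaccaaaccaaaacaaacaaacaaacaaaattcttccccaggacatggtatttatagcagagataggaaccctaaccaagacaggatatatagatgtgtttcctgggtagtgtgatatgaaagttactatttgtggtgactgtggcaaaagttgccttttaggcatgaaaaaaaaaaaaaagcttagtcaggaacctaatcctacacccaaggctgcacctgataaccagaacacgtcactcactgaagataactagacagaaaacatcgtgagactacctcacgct
Ifi44: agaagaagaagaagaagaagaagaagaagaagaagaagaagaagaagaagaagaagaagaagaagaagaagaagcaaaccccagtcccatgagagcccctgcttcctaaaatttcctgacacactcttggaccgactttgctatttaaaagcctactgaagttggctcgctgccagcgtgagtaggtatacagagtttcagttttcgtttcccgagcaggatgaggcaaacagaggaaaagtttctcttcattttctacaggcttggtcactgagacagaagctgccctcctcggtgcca
The first core begins 78 bases before the start of Isg15, 104 before that of Ifit1 and 156 before that of Ifit3. The median log2 change was 0.25 over the 12 genes with a core and 0.52 over the 9 without, and this difference was not tested. A match is a description of letters, and no binding was measured.

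Few of the 29 genes differed between the groups beyond the spread of the libraries, although most leaned upward in the labelled KO libraries. In the limma fit over 13847 genes, on log2(normalized count + 1), 2 of 29 were higher (Oasl2 and Ifi44), none was lower and 27 did not pass an adjusted p of 0.05. This is 6.9% higher, beside 4.41% of all genes tested, and 0% lower, beside 5.06%. In limma at this threshold, the share called higher is thus near the background. At an unadjusted p under 0.05, limma had 7 of 29 members higher, a larger share than the 10.8% of all genes, and 0 lower, beside 12.2%. The quasi-likelihood test of edgeR also called 2 higher and 0 lower, beside 4.33% and 4.73% of all genes. DESeq2 called 5 of 29 higher (Oasl2, Ifi44, Oas2, Oasl1 and Rtp4), a larger share than the 6.14% of all genes, and 0 lower, beside 6.59%. Quantile normalization left 1 higher (Oasl2, beside 4.53%) and 0 lower (beside 5.3%). The count of higher genes was 0 without labelled KO 4 (beside 3.99% of all genes), 1 without WT 2 (3.62%), WT 4 (2.81%) or labelled KO 1 (4.25%), and 4 without labelled KO 2 (3.05%). A fit blocked on replicate number had 5 higher and 0 lower, beside 8.98% and 9.33% of all genes, although these libraries share only a number. The fitted log2 change was above 0 for 25 of the 29 genes, or 86.2%, beside 49.1% of all genes tested. Their median log2 change was 0.26, beside -0.01 over all genes tested, and single values ran from -0.11 (Oas1a) to 2.56 (Ifi44). The groups did not overlap for the same 2 genes, Oasl2 and Ifi44, or 6.9%, beside 7.06% of all genes with every labelled KO library above every WT library. For 0 of 29 were they all below, beside 8.24% of all genes.

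**Figure D1:**
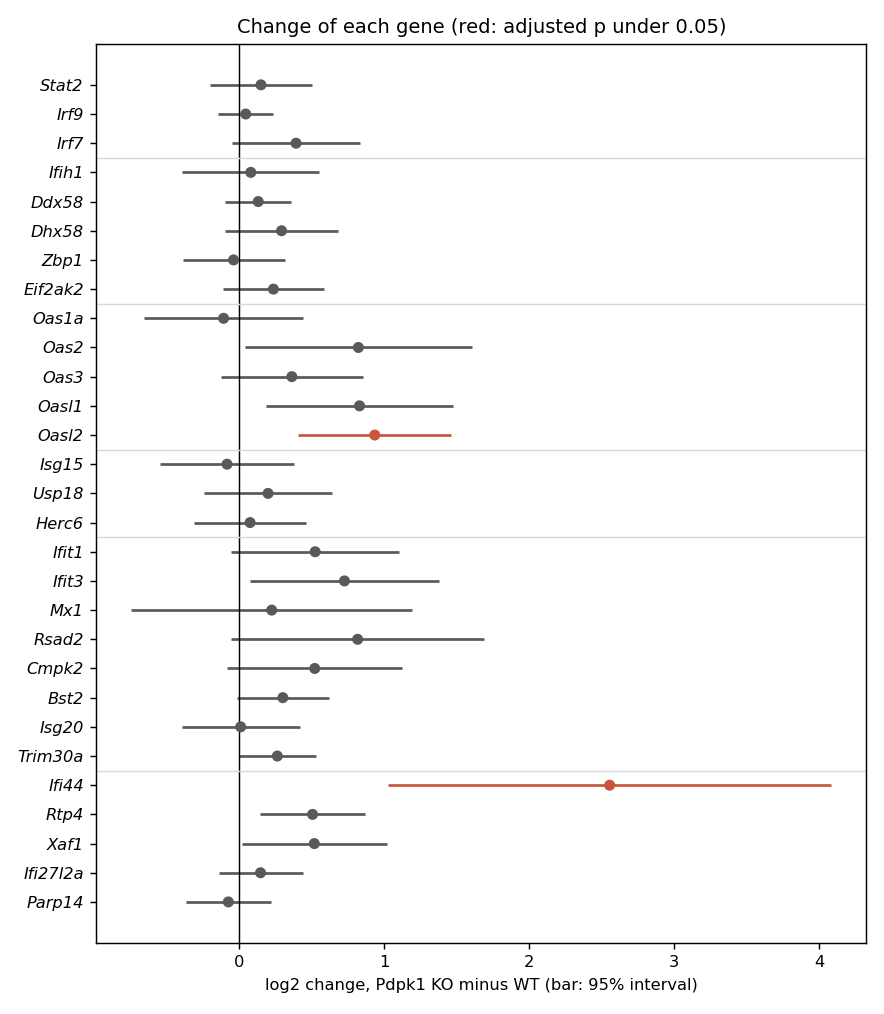
Log2 change (labelled Pdpk1 KO minus WT, on the log2(normalized count + 1) scale) of the 29 genes, with 95% intervals from limma, ordered by role and separated by grey lines. Red marks Oasl2 and Ifi44, the genes with an adjusted p under 0.05, and the points of 25 genes lie right of 0.

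None of the 3 transcription factors of the response passed the threshold in limma, edgeR or DESeq2, nor did any at an unadjusted p under 0.05 in limma, and their log2 changes ran from 0.05 to 0.39. Irf9 (ENSMUSG00000002325, chromosome 14, 55603571 to 55610030), the DNA-binding part of ISGF3, had 3999.7, 4344.3, 4285.4 and 4119.8 normalized counts in WT 1 to 4 and 4479.3, 3958, 4091.1 and 4804.6 in labelled KO 1 to 4. The groups overlapped, and the log2 change was 0.05 ± 0.09 (SE, limma adjusted p = 0.82, 95% interval -0.145 to 0.237). Stat2, another part of that complex, had 2429.4, 1886.6, 2140.4 and 1823.2 in WT and 3311.8, 1686.4, 2054.5 and 2371.6 in the labelled KO libraries, which held both the highest and the lowest value. Irf7 (chromosome 7, 141262706 to 141266481), the factor that amplifies interferon alpha production and is itself induced, had 1893.9, 1697.9, 1885.4 and 1457 in WT and 3458.9, 1594.4, 1631.3 and 2918.6 in the labelled KO libraries. Labelled KO 1 and 4 were above every WT library for Irf7 and labelled KO 2 and 3 were inside the WT range. Its log2 change of 0.39 ± 0.21 (SE) did not pass the threshold (adjusted p = 0.285).

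The list of oligoadenylate synthetase (OAS) and OAS-like genes held 1 gene that passed the threshold and 4 that did not. The product of active synthetases turns on RNase L, which cuts RNA. Oasl2 (ENSMUSG00000029561, chromosome 5, 114896936 to 114912234, plus strand), an OAS-like protein with ubiquitin-like domains, had 598.6, 452.4, 464.9 and 354.8 normalized counts in WT and 1552.1, 615.8, 628.7 and 1000.2 in the labelled KO libraries. Each labelled KO library was above each WT library, but labelled KO 2 and 3 were close to WT 1. The log2 change was 0.94 ± 0.25 (SE, 1.91-fold, adjusted p = 0.0262), and it lost the call without WT 2, WT 3, WT 4 or labelled KO 4 (adjusted p = 0.0609, 0.057, 0.0898 and 0.0673, at log2 changes of 0.93, 0.94, 0.81 and 0.88). Oasl1, the neighbouring gene on chromosome 5 (114923240 to 114937915), whose product represses translation of Irf7 mRNA, had 120.6, 232.4, 231.1 and 152.8 in WT and 473, 257.5, 181.9 and 451.4 in the labelled KO libraries. The groups overlapped through labelled KO 3, and the log2 change of 0.83 ± 0.30 (SE) had an adjusted p of 0.104. Oas2 had 214.2, 209.5, 196.1 and 130.9 in WT and 599.6, 129.3, 291.9 and 501.8 in the labelled KO libraries, so that labelled KO 2 was the lowest of the 8 and labelled KO 1 the highest (log2 change 0.82, adjusted p = 0.191). Oas1a and Oas3 gave log2 changes of -0.11 and 0.36 (adjusted p = 0.859 and 0.386). Oas1a, at 356 ± 128 in WT and 326 ± 102 in the labelled KO libraries (SD, n = 4 each), had its highest value in WT 3. Reads of Oas1a may be shared with close copies such as Oas1g, and how such reads were counted is not given in the sources used here.

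The sensors of foreign RNA and DNA did not pass the threshold. They are Ifih1 and Ddx58, which encode the RNA sensors MDA5 and RIG-I, Dhx58, which encodes their regulator LGP2, Zbp1, a sensor of nucleic acid in the Z form, and Eif2ak2, the kinase PKR that stops translation. Their log2 changes ran from -0.04 (Zbp1) to 0.29 (Dhx58), with adjusted p from 0.381 (Dhx58) to 0.922 (Zbp1). Zbp1 had 3256.8, 3147.8, 3338.1 and 2719.9 normalized counts in WT and 4222.3, 2350.5, 2329.6 and 3623.5 in the labelled KO libraries. Labelled KO 1 and 4 were above every WT library and labelled KO 2 and 3 below every WT library, and the group means of 3116 and 3131 were nearly equal. Eif2ak2 had 1646.1 in labelled KO 1 and between 815.9 and 1072.1 in the other 7 libraries.

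Isg15, a ubiquitin-like protein that is joined to other proteins during the response, had close means in both groups, 651 ± 159 in WT and 629 ± 208 in the labelled KO libraries (SD, n = 4 each). Isg15 (ENSMUSG00000035692, chromosome 4, 156199424 to 156200818) had 630.2, 562.8, 881 and 531.3 normalized counts in WT and 797.9, 454.8, 443.5 and 820.1 in the labelled KO libraries. The 2 lowest and 2 of the 3 highest values were in the labelled KO group, and the log2 change was -0.08 (95% interval -0.543 to 0.378, adjusted p = 0.871). Usp18, which removes ISG15 from proteins and damps signalling at the receptor, and Herc6, which joins ISG15 to its targets in mice, gave 0.20 and 0.08 (adjusted p = 0.626 and 0.856). Usp18 was at 1363.1 and 1368 in labelled KO 1 and 4, above the WT range of 726.3 to 1232.7, and at 825.1 and 729.8 in labelled KO 2 and 3.

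All 8 antiviral effectors had a log2 change above 0 and none passed the threshold in limma (1 at an unadjusted p under 0.05, Ifit3). Neither edgeR nor DESeq2 called any of the 8. Ifit3 (ENSMUSG00000074896, chromosome 19, 34583531 to 34588731), which with Ifit1 binds viral RNA that lacks the host's cap marks, had 1081.1, 718.2, 969.4 and 613.9 normalized counts in WT and 2482.2, 773.6, 901.5 and 2005.5 in the labelled KO libraries. Labelled KO 1 and 4 stood above every WT library and labelled KO 2 and 3 within the WT range, so the log2 change of 0.73 ± 0.30 (SE) had an adjusted p of 0.162. Its near-identical neighbour Ifit3b was likewise higher in labelled KO 1 and 4 than in 2 and 3, at 545.6, 173.1, 84.2 and 340.5 in labelled KO 1 to 4, and reads of the pair may have been split in counting. Ifit1 had 1219.8, 1174.7, 1925 and 752.6 in WT and 2584.6, 1186.7, 1238.3 and 2348.5 in the labelled KO libraries (log2 change 0.53, adjusted p = 0.272).

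Rsad2, which encodes viperin, an enzyme that makes a chain-terminating nucleotide, lies next to Cmpk2, a mitochondrial nucleotide kinase gene, on chromosome 12. Rsad2 had 297.6, 120.9, 268.8 and 157.2 normalized counts in WT and 748.6, 187.4, 193.1 and 547 in the labelled KO libraries (log2 change 0.82, adjusted p = 0.254). Cmpk2 had 1141.5 in labelled KO 1, 704 in labelled KO 4, and 569.8 and 456.9 in labelled KO 2 and 3, where WT ran from 265.2 to 702.4. Both genes were highest in labelled KO 1. Mx1, a GTPase against influenza whose C57BL/6 allele is known to carry an inactivating deletion, had the widest range of the 29 genes among the labelled KO libraries. It had 607, 85.5, 126.9 and 272.2 in labelled KO 1 to 4, a 7.1-fold range, and 255.9, 162.6, 186.9 and 123.8 in WT, a 2.07-fold range (log2 change 0.22, 95% interval -0.742 to 1.191). Bst2, which encodes tetherin, had 1758.8, 1999.8, 1513.4 and 2229.9 in the labelled KO libraries and 1342.6, 1487.4, 2029 and 1267.3 in WT (log2 change 0.30, adjusted p = 0.246). The exonuclease gene Isg20 and the ubiquitin ligase gene Trim30a gave 0.01 and 0.26.

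Among the other induced genes, Ifi44 had the largest fitted change and the lowest level. Ifi44 (ENSMUSG00000028037, chromosome 3, 151730922 to 151749960, minus strand) had 42.8, 43.8, 35.9 and 1.76 normalized counts in WT and 163.9, 120.5, 77.5 and 151.1 in the labelled KO libraries. Each labelled KO library was above each WT library, and WT 4 rested on 2 reads. In edgeR and DESeq2 its log2 change was 2.061 and 2.055 (adjusted p = 0.0364 and 0.00256). The limma log2 change was larger, at 2.56 ± 0.72 (SE, adjusted p = 0.0353). It was 1.58 without WT 4, still past the threshold (adjusted p = 0.0144), and it was not past it without any 1 of the labelled KO libraries (adjusted p from 0.0532 to 0.0807, log2 change 2.42 to 2.78). Under quantile normalization Ifi44 had an adjusted p of 0.0506, at 2.89. Rtp4, a receptor transporter protein gene, had 1781.1, 1431.1, 1113.7 and 2017.4 in the labelled KO libraries and 1003.3, 1040.2, 1415.9 and 950.2 in WT, the groups overlapping through WT 3 and labelled KO 3 (log2 change 0.51 ± 0.17 SE, adjusted p = 0.0779). The gene of the XIAP-associated factor, Xaf1, was at 0.52 (adjusted p = 0.2). Ifi27l2a, of the Ifi27 family, and Parp14, an ADP-ribosyltransferase gene, were at 0.15 and -0.07 (adjusted p = 0.571 and 0.812).

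**Figure D2:**
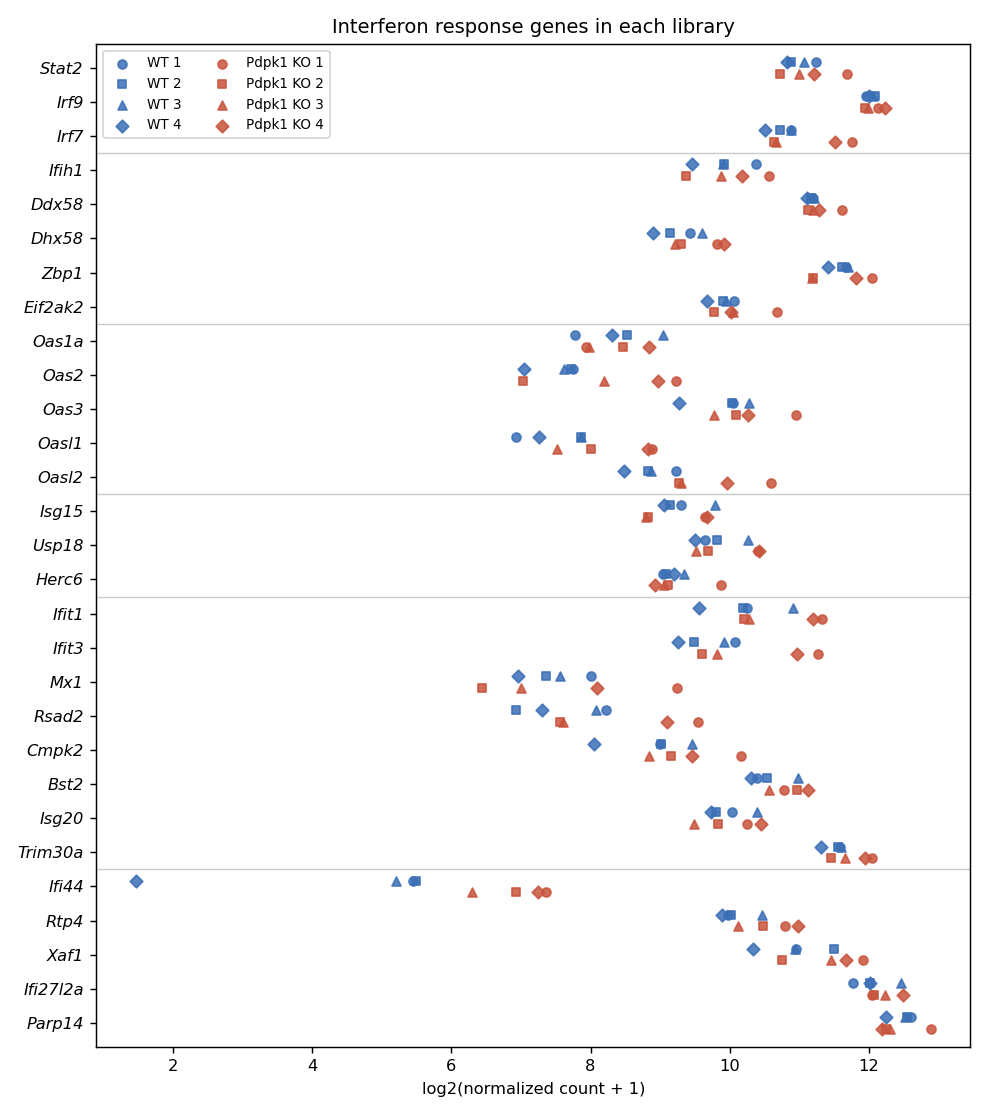
Log2(normalized count + 1) of the 29 genes in each of the 8 libraries, WT in blue and labelled Pdpk1 KO in red, with the replicate number given by the marker shape. Labelled KO 1 (red circles) is the highest library for 20 genes, beside 14.3% of all genes tested. WT 4 (blue diamonds) is the lowest for 15, beside 11.8%, and the Ifi44 point at the far left is WT 4.

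Levels differed widely between the genes when compared per length. Per kilobase of annotated exon, the WT mean of Ifi27l2a was 9418 normalized counts, that of Bst2 1696, and those of Zbp1, Isg15 and Irf9 were 883, 862 and 777. At the other end were Rsad2 at 48.7, Mx1 at 48.2, Oas2 at 42.2 and Ifi44 at 5.07. Of these 4 low genes, Ifi44 passed the threshold between groups. For 9 of the 29 genes some exon bases overlap another annotated gene, up to 13.9% of them in Rtp4 and 13.7% in Herc6. In Rtp4 and Herc6 the other gene lies on the same strand, so its reads could not be told apart by strand. Where the other gene lies on the opposite strand, the strand setting is not stated. No exon base of Oasl2 or Ifi44 is shared in this way.

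Within the labelled KO group, most of the genes were high in the same libraries. Labelled KO 1 was the highest of the 8 libraries for 20 of 29 genes and labelled KO 4 for 7, where over all genes tested these libraries were highest for 14.3% and 13.1%. Labelled KO 1 exceeded every WT library for 24 genes and labelled KO 4 for 21, while labelled KO 2 and 3 did so for 4 genes each. Over all genes tested, these 4 libraries exceeded every WT library for 25.4%, 26.4%, 26.9% and 24.8%, in the order 1, 4, 2 and 3. Labelled KO 2 was below every WT library for 8 of the 29 genes, near the background of 28.3% of all genes, and inside the WT range for 17. The median log2 deviation from the WT mean was 0.71 in labelled KO 1, -0.08 in labelled KO 2, -0.03 in labelled KO 3 and 0.57 in labelled KO 4. In WT it was 0.08, -0.01, 0.23 and -0.26, and WT 4 was the lowest of the 8 for 15 genes, beside 11.8% of all genes tested. Both labelled KO 1 and 4 were above both labelled KO 2 and 3 for 23 of the 29 genes (79.3%) and the reverse held for 0. Over all genes tested these shares were 17.3% and 17.1%. This order of libraries was noticed after the values were seen and has no test, and nothing in the labels separates these replicates.

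**Figure D3:**
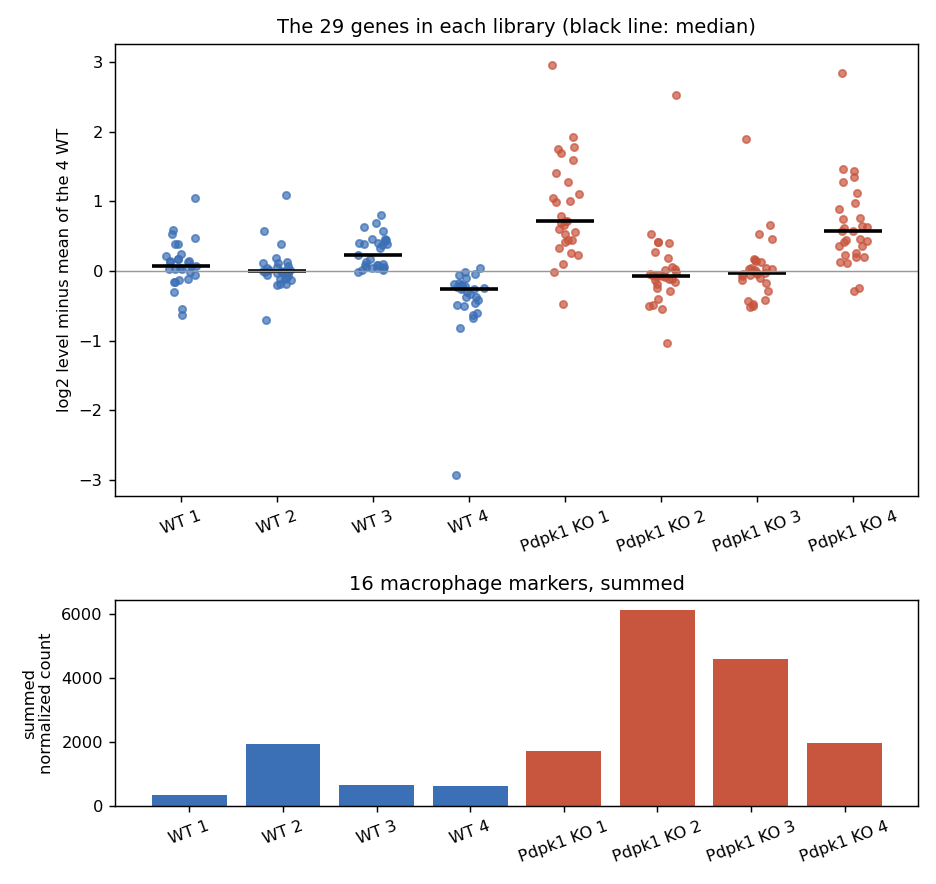
Upper panel: for each library, the log2(normalized count + 1) of each of the 29 genes minus the mean of the 4 WT libraries, with the median as a black line at 0.71, -0.08, -0.03 and 0.57 in labelled KO 1 to 4. Lower panel: the summed normalized count of 16 macrophage markers, which is highest in labelled KO 2 and 3.

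Markers of macrophages moved the other way within the labelled KO group. Their summed level was 1713, 6132, 4592 and 1979 normalized counts in labelled KO 1 to 4, and 352, 1952, 650 and 623 in WT 1 to 4. Of the 15 tested markers, 13 were higher in both labelled KO 2 and 3 than in both labelled KO 1 and 4. The marker Vsig4 was at 0 in 6 of the 8 libraries. The mean log2 level of these markers was 4.66 in WT and 6.74 in the labelled KO libraries (exact two-sided permutation p = 0.0571, where the smallest possible p is 0.0286). Recovered reads were 22908598, 21358046, 20004776 and 26299577 in labelled KO 1 to 4, so the 2 libraries high in interferon response genes were also the deeper ones of the group. With the macrophage mean as a covariate, 3 of the 29 genes were higher (Oasl2, Ifit3 and Rsad2, at log2 changes of 1.59, 1.64 and 2.19 and adjusted p of 0.00538, 0.00882 and 0.00307), 0 were lower, and Ifi44 was at 2.50 with an adjusted p of 0.254. That fit called 1.56% of all genes higher and 1.99% lower. Leaving out WT 2 and labelled KO 2 and 3, the libraries highest in these markers within their groups, left labelled KO 1 and 4 against 3 WT libraries. Then 8 of 29 were higher (Irf7, Oas2, Oasl1, Oasl2, Ifit3, Rsad2, Rtp4 and Xaf1), 0 lower and 29 above 0, beside 1.21% of all genes called higher and 2.2% lower. That choice of libraries was made after the values were seen, and it keeps the labelled KO libraries in which the genes stood highest, so it is given as values alone. Without the 3 libraries highest in these markers of all 8 (labelled KO 2, 3 and 4), 7 were higher and 0 lower, beside 1.19% and 2.12%, with labelled KO 1 alone against 4 WT libraries and assumed to vary like them. These fits cannot separate macrophage RNA from the group or from the order of the libraries. Both choices of libraries drop labelled KO 2 and 3. The mean log2 level of the markers ran from 3.37 to 6.23 in WT and from 5.62 to 7.82 in the labelled KO libraries. A call lost or gained with the covariate is therefore not assigned to macrophage RNA. No fit held depth, and the part of macrophage RNA or of depth in that order was not tested.

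The spread among labelled KO libraries was larger than among WT libraries for 24 of the 29 genes. The median log2 SD was 0.31 in WT and 0.48 in the labelled KO group, beside 0.24 and 0.25 over all genes tested. The SD was larger in the labelled KO group for 82.8% of the members and for 54.2% of all genes. Ifi44, Oas1a, Bst2, Cmpk2 and Ifi27l2a were the exceptions. This difference in spread was noticed in the values and was not tested.

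Most genes of the machinery above the response did not pass the threshold. The receptor chains Ifnar1 and Ifnar2 had log2 changes of -0.06 and -0.09 (adjusted p = 0.75 and 0.69), with WT means of 3691 ± 193 and 1932 ± 154 normalized counts and labelled KO means of 3544 ± 256 and 1824 ± 234 (SD, n = 4 each). Of 42 tested pathway genes outside the 29, 3 passed as higher, 4 as lower and 35 as neither, or 7.14% higher and 9.52% lower, beside 4.41% and 5.06% of all genes, with a median log2 change of -0.05. Tyk2, the kinase bound to Ifnar1, fell from 2379.8, 1842.8, 2130.3 and 2099.9 in WT to 1742, 1451.9, 1535.9 and 1607.8, a log2 change of -0.41 (adjusted p = 0.0187). Its call was lost without WT 1, WT 4, labelled KO 2 or labelled KO 3 (adjusted p = 0.0547, 0.0503, 0.0584 and 0.0582, at log2 changes of -0.35, -0.41, -0.37 and -0.40), and with the macrophage covariate it was at -0.17 (adjusted p = 0.572). The partner kinase Jak1 had 15078.4 to 17220 in WT and 20693.6, 20183.5, 20188.4 and 16467.9 in the labelled KO libraries (log2 change 0.24, adjusted p = 0.176). The feedback inhibitor gene Socs1 was at -0.47 (adjusted p = 0.0862), and Irf1 and Irf3 were at -0.01 and -0.06.

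Irf8, a factor of the same family that is best known in myeloid and B cells, fell clearly. It had 788, 715, 826.7 and 781.6 normalized counts in WT and 466.5, 368.2, 386.2 and 410.5 in the labelled KO libraries, with no overlap (log2 change -0.93 ± 0.13 SE, adjusted p = 0.000204). Without the 3 libraries highest in macrophage markers Irf8 was at -0.73 (adjusted p = 0.0582), and with the covariate at -0.75 (adjusted p = 0.0285). Among genes of the sensing pathways that lead to interferon, the adaptor gene Traf6 rose from 1669 ± 163 to 2620 ± 235 (SD, n = 4 each, adjusted p = 0.000753). Samhd1, which degrades deoxynucleotides, rose from 28060 ± 1741 to 38850 ± 1579 (log2 change 0.47, adjusted p = 0.00822), but was at 0.15 under quantile normalization (adjusted p = 0.461). Trim25, a ubiquitin ligase for RIG-I, rose by 0.47 on the log2 scale (adjusted p = 0.0263) and was not past the threshold without WT 3, WT 4, labelled KO 1 or labelled KO 3 (adjusted p from 0.0577 to 0.0945). Traf3, an adaptor that passes sensor signals to the kinase TBK1, fell by 0.42 on the log2 scale (adjusted p = 0.0154), and was at -0.39 without WT 2 and -0.37 without labelled KO 2, not past it (adjusted p = 0.0514 and 0.0505). The macrophage covariate left Samhd1, Trim25 and Traf3 uncalled, with log2 changes of 0.49, 0.52 and -0.32 (adjusted p = 0.0817, 0.15 and 0.285). The change of Traf3 was smaller than in the main fit, and those of Samhd1 and Trim25 were not. The covariate itself was higher in the labelled KO group, so the fit cannot separate macrophage RNA from the group. The part of macrophage RNA in these calls was not tested.

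Of 12 interferon genes looked up by symbol, Ifnk and Ifng were listed. The other 10 were not found under their symbols, so they had no values to analyse. Ifnk had 4.17 in WT 2, 6.52 in labelled KO 1 and 0 elsewhere, where 0 allows up to 3 reads, equal to 2.56 to 3.38 normalized counts. Ifng, the type II interferon, had 48.5, 26.1, 32.2 and 14.9 in WT and 6.52, 7.67, 0 and 0 in the labelled KO libraries. With 2 libraries at 0 the fitted log2 change depends on the pseudocount, and it was -3.35 with 1 (adjusted p = 0.0309), -3.87 with 0.5 and -2.10 with 5 (adjusted p = 0.0439 and 0.0151). It was -3.06 in edgeR (adjusted p = 0.0606) and -3.12 with the macrophage covariate (adjusted p = 0.288), and limma's call was lost in 6 of the 8 fits that leave out 1 library: those without WT 1, 2, 3 or 4 and those without labelled KO 3 or 4 (adjusted p from 0.0538 to 0.102).

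Interferon-induced genes outside the 29, listed separately, also held genes that rose and fell. Of 86 tested, 15 passed as higher, 2 as lower and 69 as neither, or 17.4% higher and 2.33% lower, beside 4.41% and 5.06% of all genes. Their median log2 change was 0.10, and 53 (61.6%) were above 0, beside 49.1% of all genes. Ifitm3, which blocks viral fusion, rose from 62, 71.9, 96.7 and 44.8 normalized counts in WT to 190.9, 134.8, 176.3 and 190.3 (log2 change 1.36 ± 0.28 SE, adjusted p = 0.00597). The oxidase gene Xdh rose from 651 ± 222 to 1229 ± 275 and the NAD synthesis gene Nampt from 1325 ± 88.4 to 1809 ± 128. Ms4a4b and Ms4a4c, which encode membrane proteins of T cells, rose by 0.53 and 0.68 and the nucleic acid sensor family gene Ifi209 by 0.51 on the log2 scale. Of these 6 genes, Xdh kept an adjusted p under 0.05 with the macrophage covariate, at a log2 change of 1.31. The other 5 were at adjusted p from 0.0929 to 0.218, with log2 changes of 1.39 (Ifitm3), 0.45 (Nampt), 0.40 (Ms4a4b), 0.65 (Ms4a4c) and 0.55 (Ifi209). The fallers were Ly6a, encoding the surface protein Sca-1, from 2893 ± 681 to 1574 ± 465, and Cxcl10, a chemokine gene that interferon gamma strongly induces, from 92.1 ± 28.3 to 27 ± 10.9. With that covariate Ly6a and Cxcl10 were at -0.76 and -1.19 (adjusted p = 0.198 and 0.331).

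Both labelled KO 1 and 4 were above both labelled KO 2 and 3 for 39 of these 86 genes (45.3%, beside 17.3% of all genes), and labelled KO 1 was the highest of the 8 for 42 (48.8%, beside 14.3%). Among 17 GTPases that interferon gamma induces, 6 were higher and 1 lower (Gbp8, named for its direction after its values were seen), or 35.3% and 5.88%, beside 4.41% and 5.06% of all genes. Labelled KO 1 was the highest library for 13 of the 17, beside 14.3% of all genes. Both labelled KO 1 and 4 were above both labelled KO 2 and 3 for 8 of the 17 (47.1%, beside 17.3% of all genes). The reverse held for 0, beside 17.1% of all genes. The smallest adjusted p belonged to the guanylate-binding protein genes Gbp2, with 3239.9, 2863.2, 3484.5 and 2472.2 in WT and 14629.7, 12888.8, 8705.4 and 11436.3 in the labelled KO libraries, and Gbp3, with 1922 ± 201 and 4713 ± 603 (SD, n = 4 each). Their log2 changes were 1.97 and 1.29 (adjusted p = 1.27e-06 and 3.11e-06). Gbp2 was above every WT library in each labelled KO library, labelled KO 2 and 3 included, while Ifit3 was above them in labelled KO 1 and 4, and this difference between the genes was not tested.

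**Figure D4:**
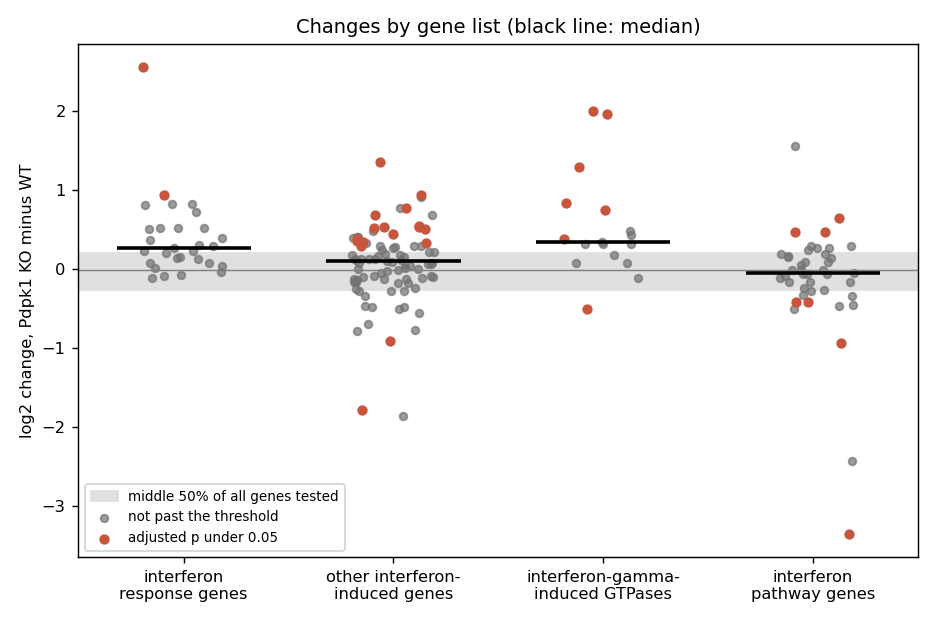
Log2 change (labelled Pdpk1 KO minus WT) of the tested genes of 4 lists, with the list's median as a black line at 0.26, 0.10, 0.35 and -0.05 and genes with an adjusted p under 0.05 in red. The grey band holds the middle 50% of all genes tested, and the lowest red point is Ifng.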

How the data were processed

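Each of the 8 libraries was 1 column of the deposited table, whose signal values are gene read counts divided by a DESeq2 size factor by the authors. GRCm38, STAR 2.7.6a, featureCounts, Subread 2.0.1, Trimmomatic 0.39, SAMtools 1.11 and DESeq2 1.21 appear, without roles, in the submitters' processing notes. The annotation release and strand setting are not given in the sources used here. In each library 100% of values were whole multiples of the smallest (tolerance 0.001), so reads were recovered, on which edgeR called 599 genes higher and 655 lower. Of 19826 IDs, 19775 matched a symbol, and gene positions were taken from GENCODE M21 (GRCm38). Genes with a normalized count of at least 10 in at least 4 libraries were tested (13847). The test was limma 3.58.1 in R 4.3.3 (eBayes with trend, two-sided, Benjamini-Hochberg) on log2(normalized count + 1). The added 1 shrinks changes of low genes, but limma's changes were not always the smaller ones. Ifi44, for example, was at 2.556 in limma and 2.061 in edgeR. Where no tool is named, an adjusted p is limma's. All 29 members passed the filter. Alternatives were pseudocounts of 0.5 and 5, other filters, TMM and quantile scaling, edgeR 4.0.16 and DESeq2 1.42.0 on the reads, a replicate block, a macrophage covariate and left-out libraries. The tests were tried on simulated counts, drawn independently for each gene and library. That trial does not cover genes that move together within libraries, as the members did here. No replicate pair agreed within counting noise (chi-square per degree of freedom 13.8 or more). The members, gene lists and tests were chosen with earlier results of these data known. Named genes outside the 29 were 8 fixed pathway genes, up to 6 per list and direction with the smallest adjusted p, and 2 GTPases, and 1 of these pathway genes is not reported here. Intervals of log2 changes are limma's and rest on the spread between libraries. Floors for a count of 0 cover counting error only, without molecular identifiers.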

Additional observations from a re-analysis of the deposited data

Results flagged for a closer look

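Among 110 groups of 4 libraries (55 named genes in each genotype), 3 held a library far from the other 3 on the log2 scale, by the gap to its nearest neighbour as a share of the group's range (Dixon's 95% critical value), and chance gives this in about 1 of 20 groups. Ifi44 in WT was at 1.76 normalized counts in WT 4, where the other WT libraries had 35.9 to 43.8. Parp14 was at 7610.4 in labelled KO 1, above 4695.4 to 5078 in the other labelled KO libraries. Jak1 was at 16467.9 in labelled KO 4, below 20183.5 to 20693.6 in the other labelled KO libraries.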

How the results depend on the processing

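The count of members higher was 1 with quantile normalization, 5 in DESeq2, 7 without the 3 libraries highest in macrophage markers, and 8 without WT 2 and labelled KO 2 and 3, an alternative chosen after seeing the data. It stayed within 1.5 times of 2 with the other pseudocounts, filters, TMM scaling, edgeR and the macrophage covariate. Leaving out single libraries gave 0 to 4, 0 without labelled KO 4 and 4 without labelled KO 2. With the replicate number as a replicate block it was 5 (Oasl2, Ifit3, Rsad2, Ifi44 and Rtp4), beside 8.98% of all genes called higher and 9.33% lower. Same-numbered libraries had deviations correlated at 0.217, 0.0921, 0.0481 and 0.113, not every library fitted its own number best, and the labels do not pair them. No setting called a member lower. The median log2 change stayed between 0.16 and 0.63, except for 0.71 without the 3 libraries highest in macrophage markers. That fit leaves labelled KO 1, in which most of the genes stood highest, alone against 4 WT libraries. It assumes that labelled KO 1 varies like them. The cause of these shifts was not tested. Of 580 values of single members under the alternatives, 541 kept direction or stayed uncalled, 27 gained and 12 lost the call. At 4 libraries a group, values resting on few reads, such as Ifi44 in WT 4, limit precision.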
